A study of Homo sapiens with 6 samples.

Results

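Across most of a long stretch of the long arm of chromosome 5, protein-coding genes were more highly expressed in BARD1-expressing ovarian carcinoma cells than in control cells, by a median of 1.4-fold. The stretch holds the protein-coding genes of the count table whose start on chromosome 5 lies between 126600268 and 168472303 (GRCh38). The clustered protocadherins, 53 of them protein coding, were left out by name, as were CD74, EGR1 and PDGFRB. That left 282 members of 58735 genes in the table, 19951 of which are protein coding. The members were selected on the log2 fold changes of this same comparison. Runs of 25 neighbouring expressed genes had been searched for a median log2 fold change of at least 0.3, and the stretch spans the runs that reached it. Values of the members between the 2 groups are therefore a description, without a test.

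Per the labels' protocols, BARD1-expressing cells were made by lentiviral transduction of cells named OVCAR8 there, a line labelled as high-grade serous ovarian carcinoma, with a BARD1 open reading frame, and a GFP-BARD1 signal was viewed under the microscope. Control cells carry the genotype label control, and whether they received an empty vector is not given in the labels. There were 3 libraries per group, all labelled 48 h and stable cells, and replicates are called biological without a statement on separate cultures or transductions. The labels conflict on the material: the titles and the growth protocol give OVCAR8ip1 cells, but the tags give SKOV3ip1, another ovarian carcinoma line, and its tumors. Nothing in the labels says whether the transduced cells were 1 clone or a pool. An effect of BARD1 and any other difference between the control cells and the transduced cells cannot be told apart in this design.

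The long arm of chromosome 5 is best known in medicine from its loss in myeloid malignancy, where genes such as RPS14, a protein of the small ribosomal subunit, and CSNK1A1, a kinase of the beta-catenin destruction complex, are expressed at reduced dose. The same arm carries the cluster of T-helper cytokine genes around IL3, IL4 and IL5, the glucocorticoid receptor gene NR3C1, and the alpha-catenin gene CTNNA1. Genes of unrelated function lie side by side here. Housekeeping genes of translation, protein degradation and membrane traffic alternate with genes that only particular tissues use.

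The libraries held 12744310 to 24349158 counted reads in BARD1-expressing cells and 21819199 to 23992482 in control cells. Levels below are TMM-scaled CPM, that is counts per 1e6 counts after edgeR's correction for library composition. Each log2 fold change sets BARD1-expressing cells over control cells, with the standard error (SE) from the edgeR fit of 15400 genes. Genes with a Benjamini-Hochberg adjusted p under 0.05 are called higher or lower. BARD1 itself, on chromosome 2, had 49, 44.3 and 45.7 CPM in BARD1-expressing libraries 1 to 3 and 17.1, 17.2 and 19.4 CPM in control libraries 1 to 3, a log2 fold change of 1.37 ± 0.081 (edgeR adjusted p = 4.67e-12). Of 8 serous carcinoma markers 5 reached a mean of 1 CPM. MUC16 had no count in any library, and WT1 and SOX17 were under 1 CPM. The summed level of the 8 was 1294 to 1412 CPM in BARD1-expressing libraries and 1162 to 1221 CPM in control libraries, most of it KRT7. PAX8, a lineage marker of the list, was lower, with 91.4 CPM in BARD1-expressing cells and 143 CPM in control cells on average and no overlap (log2 fold change -0.65, edgeR adjusted p = 1.19e-08). KRT7 (0.34), FOLR1 (0.56) and WT1 (1.43) were called higher, with overlapping groups in WT1, and EPCAM and MSLN were not called. WT1 had 5, 43 and 11 counts in BARD1-expressing libraries and 10, 7 and 10 in control libraries. Its value thus rests largely on BARD1-expressing library 2. Among fibroblast and pericyte markers COL1A1 alone reached 1 CPM and DCN was at 0, with summed levels of 828 to 874 CPM in BARD1-expressing libraries and 1011 to 1077 CPM in control libraries. All 7 endothelial and all 7 leukocyte markers were under 1 CPM. These libraries are bulk RNA, in which more cells that express a gene and more RNA per cell cannot be told apart.

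Of the 282 members, 183 had enough counts to be tested, and 151 reached a mean of 5 CPM over the 6 libraries. That mean takes in both groups, so members with a control mean under 5 CPM reached it only through BARD1-expressing cells. Among the 183, 140 were called higher in BARD1-expressing cells, 4 were called lower and 39 were not called. Over all 15400 tested genes, 29% were called, 16.5% higher and 12.4% lower. All BARD1-expressing libraries lay above all control libraries for 143 members and below them for 3, where the shares over all tested genes are 21.7% and 19.2%. Since the limits were drawn around high values, nothing is read from these counts about the members as a group.

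Among the 151 members with at least 5 CPM, the log2 fold change had a median of 0.48, quartiles of 0.27 and 0.64, and a range from -0.44 to 1.71. The median was 0.00 over 10225 protein-coding genes of the same level outside the limits and -0.02 over the 337 of them on chromosome 5. In 141 of the 151 members the value lay above 0, and in 10 below. The change was moderate for most: 48 members lay from 0.25 to under 0.5, 55 from 0.5 to under 0.75, 11 from 0.75 to under 1, and 5 at 1 or more. A further 22 lay from 0 to under 0.25. The SD between members was 0.311, and their median SE was 0.066. Genes outside the limits had an SD of 0.339 around their own median.

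The pattern was alike in each library. Set against the mean of the 3 controls, the median member had a log2 difference of 0.46, 0.44 and 0.48 in BARD1-expressing libraries 1 to 3. Each control library, set against the mean of the other controls, gave a median of -0.02, 0.01 and 0.00. In BARD1-expressing libraries 137, 140 and 142 of the 151 members lay above 0, against 61, 85 and 77 in control libraries. Summed over all members, the level was 21866, 21386 and 21785 CPM in BARD1-expressing libraries and 15415, 15808 and 15835 CPM in control libraries, a ratio of 1.38. Without TGFBI, the most abundant member, the ratio was 1.35. No library stood apart from the others of its group in these sums.

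**Figure D1:**
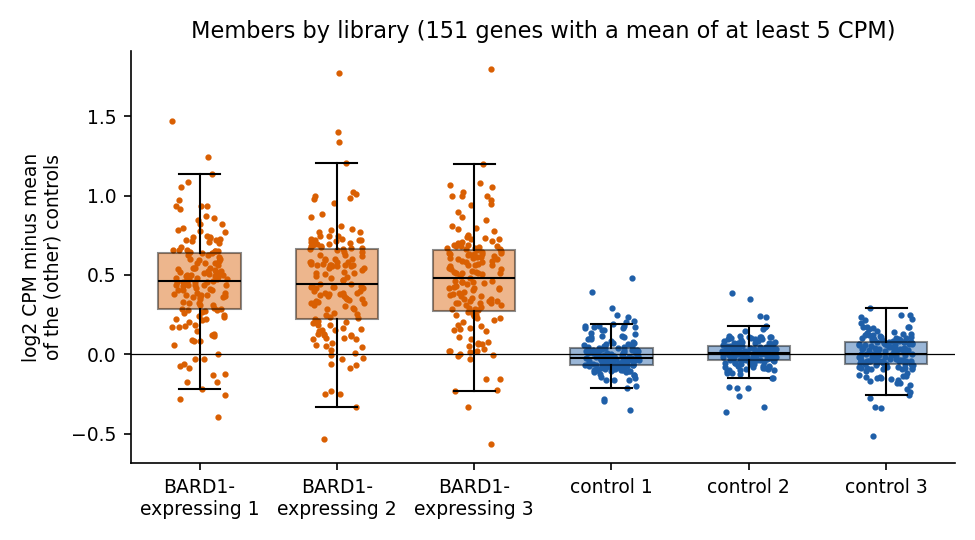
Log2 CPM of each of the 151 members with at least 5 CPM (points) minus the mean of the controls, or of the other controls for a control library, in each of the 6 libraries; boxes give the median and quartiles, and whiskers reach the farthest value within 1.5 box lengths. The BARD1-expressing libraries have medians of 0.46, 0.44 and 0.48 and the control libraries medians of -0.02, 0.01 and 0.00.

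Along the chromosome the raised values were not spread evenly between the limits. The first 12 expressed members, whose starts lie from 126.6 to 131.6 Mb, had a median log2 fold change of 0.04, with 3 called higher and 1 lower. From P4HA2, the enzyme subunit that hydroxylates collagen prolines (chromosome 5, 132191838 to 132295315), to PTTG1, the securin that keeps separase inactive until anaphase (160421822 to 160428744), the median was 0.51 over 134 expressed members. Over that span 121 were called higher and 1 lower, and 130 lay above 0. The last 5 expressed members, with starts from 163.4 to 168.3 Mb, had a median of 0.11, with 2 called higher and 2 lower. This division was made after the values were seen. The name of a raised stretch thus holds for the members from P4HA2 to PTTG1, while the rule also takes in genes near 0 on both sides of them.

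Within the raised span the change was larger near its start and smaller towards its end. In steps of 5 Mb from the lower limit, the median log2 fold change of expressed members was 0.04 (11 genes), 0.58 (31 genes), 0.61 (35 genes), 0.58 (16 genes), 0.43 (27 genes), 0.38 (11 genes) and 0.35 (15 genes). The remaining steps held 4 genes with a median of 0.16 and 1 gene, WWC1, at -0.25. The run of 25 genes with the highest median, 0.66, began at PROB1 and ended at the protocadherin PCDHGB5, since the runs had been drawn through the protocadherin cluster. Neighbouring members differed by a median of 0.24 in log2 fold change (150 pairs).

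The members just inside the limits lay below the median of all expressed members. From the lower limit these were PHAX at 0.04 ± 0.055 (SE), LMNB1 at 0.19 ± 0.052 and MARCHF3 at -0.10 ± 0.11, and before the upper limit HMMR at 0.25 ± 0.061, MAT2B at -0.18 ± 0.059 and WWC1 at -0.25 ± 0.049. Just outside lay CSNK1G3 at -0.20, GRAMD2B at 0.10 and ALDH7A1 at 0.13 on the lower side, and RARS at -0.34, FBLL1 at -0.34 and PANK3 at 0.09 on the upper side. The limits follow from the width of the runs: the first run past 0.3 reached from PHAX to C5orf15 with a median of 0.33, and the last from SAP30L to WWC1 with a median of 0.32.

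**Figure D2:**
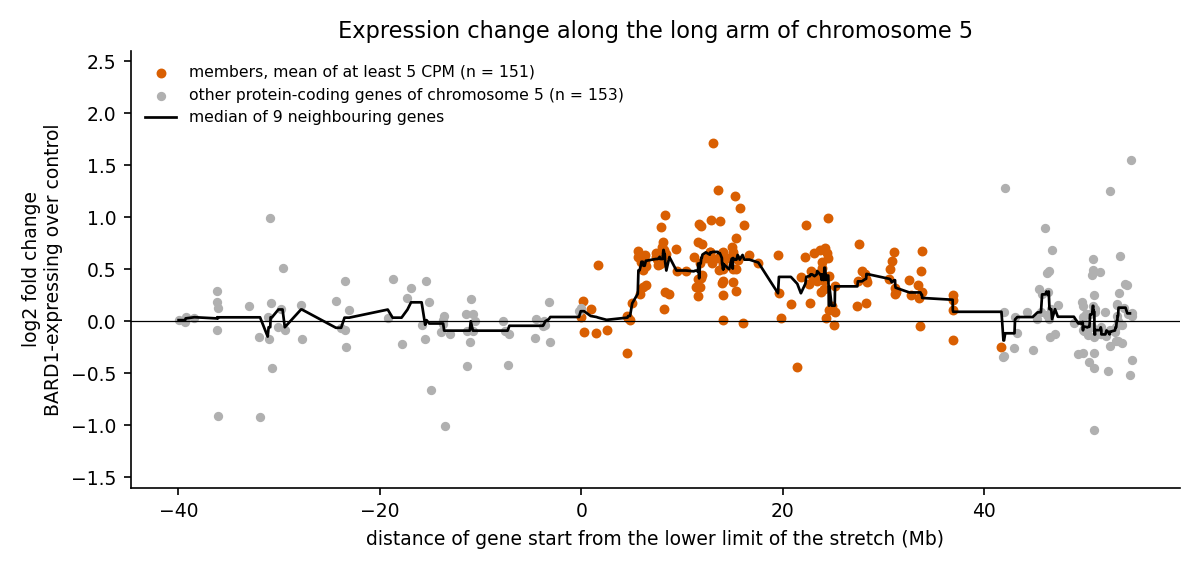
Log2 fold change, BARD1-expressing over control, of protein-coding genes with at least 5 CPM against the distance of their start from the lower limit of the stretch, in megabases; members are orange, other genes of the long arm grey, and the line is the running median of 9 neighbours. The line lies near 0 up to about the first 5 Mb of the stretch, then near the median of 0.58 to 0.61 of the next 3 steps, and returns towards 0 before the upper limit.

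The largest change among expressed members was that of CXXC5. CXXC5, a CpG-binding protein that restrains Wnt signalling, had 10.7, 13.2 and 13.4 CPM in BARD1-expressing libraries and 4, 3.24 and 4.2 CPM in control libraries, a log2 fold change of 1.71 ± 0.142 (SE). CYSTM1, a small membrane protein, had 30.4, 36.5 and 31.9 CPM in BARD1-expressing libraries and 13.4, 13.3 and 14.8 CPM in control libraries, a change of 1.26. In both genes every BARD1-expressing library lay more than 2-fold above the highest control. The adhesion protein PCDH1, a protocadherin outside the gene clusters, had 11.7, 12.5 and 9.69 CPM in BARD1-expressing libraries against 5.16, 5.26 and 4.34 CPM in control libraries (log2 fold change 1.21). SPRY4, a feedback inhibitor of growth factor receptor signalling, had 27.4, 33.2 and 30.3 CPM against 14.4, 13 and 15.7 CPM in controls (1.09). The groups did not overlap in either gene. CXXC5 and PCDH1 had control means under 5 CPM, so they counted as expressed only through their level in BARD1-expressing cells.

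The other members among the 8 highest were close to a doubling. PCBD2, a dimerization cofactor of the HNF1 transcription factors, averaged 7.09 ± 0.304 CPM in BARD1-expressing cells and 3.51 ± 0.436 CPM in control cells (SD, n = 3 each). PCBD2 likewise counted as expressed only through its level in BARD1-expressing cells. TNIP1, which binds the ubiquitin-editing enzyme A20 and restrains NF-kappaB signalling, had 173, 175 and 175 CPM in BARD1-expressing libraries and 91.3, 87.8 and 84.3 CPM in control libraries, a log2 fold change of 0.99 ± 0.053 (SE). TMEM173, which encodes the innate immune adaptor STING, had 35.4, 38.8 and 41.3 CPM in BARD1-expressing libraries and 19.8, 20.1 and 19.1 CPM in control libraries (0.97). HBEGF, a ligand of the EGF receptor, had 48, 41.2 and 43.4 CPM in BARD1-expressing libraries and 23.2, 21.9 and 22.6 CPM in control libraries (0.96). The groups did not overlap in any of these 4 genes.

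The most abundant members per length of transcript were raised as well, with 1 exception. TGFBI, a secreted protein that binds collagen and integrins, had 2818, 2630 and 2730 CPM in BARD1-expressing libraries and 1606, 1673 and 1761 CPM in control libraries, or 349 and 215 CPM per kilobase in the group means. Its log2 fold change was 0.70 ± 0.048 (SE). RPS14 had 1128, 1311 and 1232 CPM in BARD1-expressing libraries and 840, 823 and 802 CPM in control libraries (0.57 ± 0.052). VDAC1, the main channel of the outer mitochondrial membrane, had 472, 454 and 472 CPM in BARD1-expressing libraries against 295, 308 and 307 CPM in control libraries (0.62). In all 3 genes the lowest BARD1-expressing library lay above the highest control library. The ubiquitin ligase RNF145 (0.39) and the mitochondrial chaperone HSPA9 (0.45) followed. HINT1, a purine phosphoramidase upstream of the raised span, was the exception, with 160, 182 and 166 CPM in BARD1-expressing libraries and 172, 163 and 157 CPM in control libraries (0.05 ± 0.057). The sources used here do not say how reads shared with processed copies of RPS14 or HINT1 were counted, so the levels of both are uncertain.

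**Figure D3:**
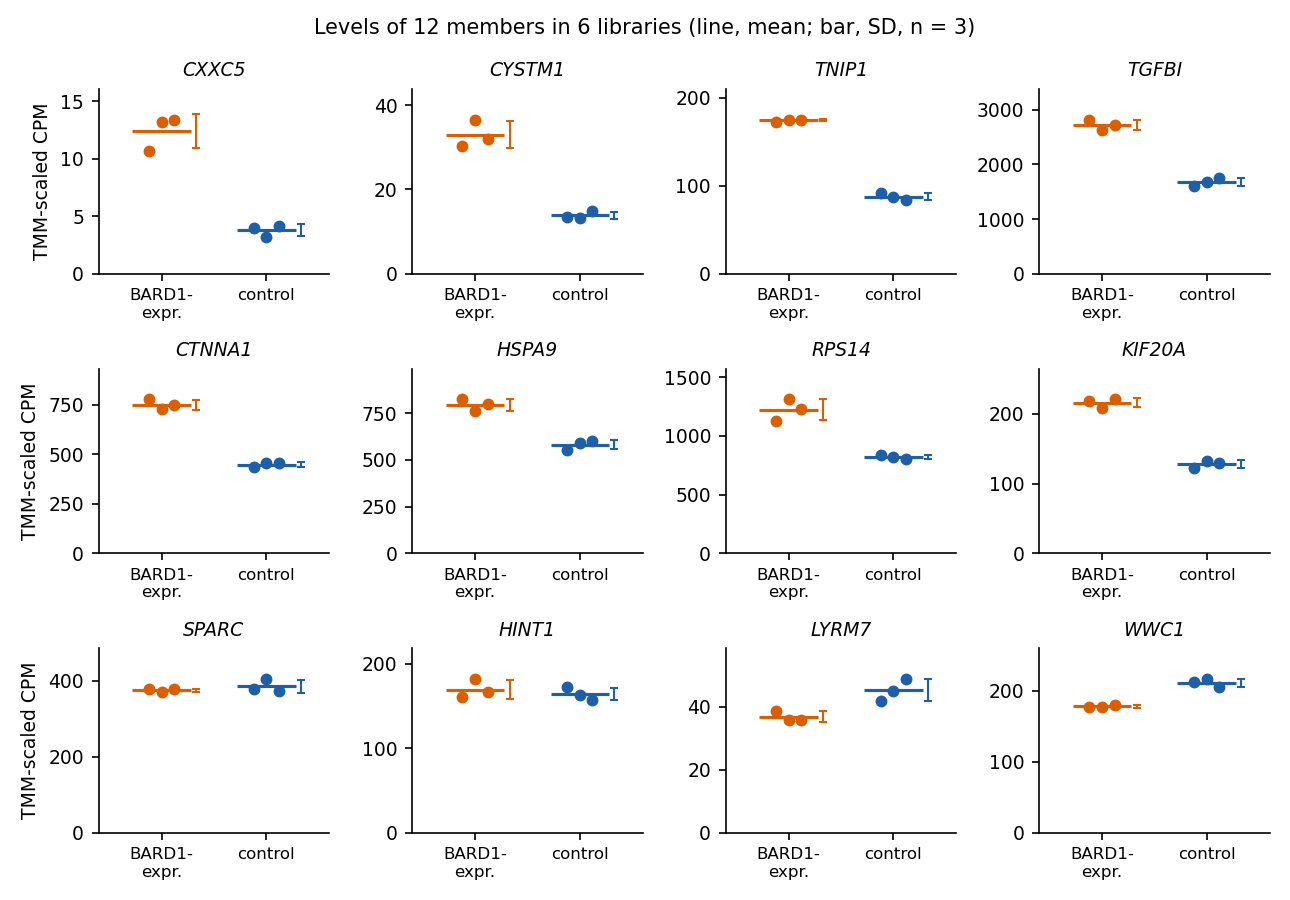
TMM-scaled CPM of 12 members in the 3 BARD1-expressing libraries (orange, left) and the 3 control libraries (blue, right) on linear axes from 0; lines are group means and bars SD (n = 3). CXXC5, CYSTM1, TNIP1, TGFBI, CTNNA1, HSPA9, RPS14 and KIF20A are separated with BARD1-expressing libraries above, SPARC and HINT1 overlap, and LYRM7 and WWC1 are separated with BARD1-expressing libraries below.

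Genes of the cell cycle held 9 members called higher and none called lower, out of 12 listed and tested, with a median log2 fold change of 0.33 over the 12. Over all 183 tested members, selected on these values, 76.5% were called higher and the median was 0.49. The counts of this and the following role groups are to be seen beside that share and are a description only. KIF20A, a kinesin of the central spindle (138178719 to 138187715), had 219, 209 and 221 CPM in BARD1-expressing libraries and 122, 133 and 129 CPM in control libraries, a change of 0.76 ± 0.052 (SE). CDC25C, the phosphatase that activates CDK1 at entry into mitosis, had 27.5, 26.9 and 29.1 CPM in BARD1-expressing libraries and 15.8, 14.1 and 13.7 CPM in control libraries (0.93). PTTG1 had 183, 188 and 186 CPM in BARD1-expressing libraries and 113, 117 and 119 CPM in control libraries (0.68). Other mitotic genes changed less: CDC23, a subunit of the anaphase-promoting complex, by 0.41, LMNB1, a lamin of the nuclear envelope, by 0.19, and the hyaluronan-binding spindle protein HMMR by 0.25. LMNB1 and HMMR lie outside the span from P4HA2 to PTTG1, and LMNB1, at 0.16, was not called without BARD1-expressing library 3 or without control library 1. SKP1, an SCF ligase adaptor, was higher by 0.60, PPP2CA, the catalytic subunit of PP2A, by 0.54 and CCNG1, a p53 target in the cyclin family, by 0.21.

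Transcription and chromatin genes were the largest role group, with 20 of 23 tested called higher, none lower and a median of 0.50. AFF4, the scaffold of the super elongation complex, had 223, 223 and 231 CPM in BARD1-expressing libraries and 142, 142 and 150 CPM in control libraries (log2 fold change 0.64 ± 0.050 SE). H2AFY, the histone variant macroH2A1, had 156, 164 and 165 CPM in BARD1-expressing libraries and 135, 137 and 131 CPM in control libraries (0.27 ± 0.051). Thus abundant chromatin genes of the same span differed in how far they moved. HMGXB3, an HMG-box protein, was higher by 0.45. EBF1 and the zinc finger gene ZNF300 were not called, and CDX1 and HAND1 had too few counts.

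Translation and RNA genes had 18 of 21 tested called higher and none lower, with a median of 0.38. LARP1, which binds the 5' end of ribosomal protein mRNAs, had 737, 780 and 766 CPM in BARD1-expressing libraries and 539, 560 and 567 CPM in control libraries (0.45 ± 0.047 SE). The stress granule protein G3BP1 had 762, 687 and 733 CPM in BARD1-expressing libraries and 550, 583 and 595 CPM in control libraries (0.34). ETF1, the release factor that reads stop codons, had 383, 371 and 383 CPM in BARD1-expressing libraries and 266, 289 and 299 CPM in control libraries (0.41). All 3 were separated between the groups. ANKHD1, DDX46 and MATR3 were not called, and MATR3 appears as 2 overlapping entries of the table, 1 of them tested, so its counts are uncertain.

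In the ubiquitin pathway 10 of 11 tested genes were called higher, with a median of 0.56; KLHL3 among them passed the filter on low counts only through BARD1-expressing cells. UBE2D2, a widely used ubiquitin-conjugating enzyme, had 157, 176 and 171 CPM in BARD1-expressing libraries and 116, 114 and 112 CPM in control libraries (0.56 ± 0.054 SE). NDFIP1, an adaptor of NEDD4-family ligases, was higher by 0.59. MARCHF3, a membrane-bound ligase near the lower limit, was the member not called. Mitochondrial genes gave 9 called higher and 1 lower of 11 tested, with UQCRQ, a subunit of complex III, at 97.2, 131 and 123 CPM in BARD1-expressing libraries and 87.5, 75.2 and 73.3 CPM in control libraries (0.58 ± 0.12). The nucleotide exchange factor GRPEL2 was higher by 0.48. All 11 listed genes of protein folding and membrane traffic were called higher, from 0.28 to 0.77. HSPA4, an HSP110-family chaperone, was among them with 454, 394 and 433 CPM in BARD1-expressing libraries and 315, 338 and 353 CPM in control libraries (0.35), as was CLINT1, an epsin-related clathrin adaptor (0.28).

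Among matrix and adhesion genes 10 of 11 tested were called higher, with a median of 0.58, where TENM2 was tested only because of its level in BARD1-expressing cells. CTNNA1, which links cadherins to actin (138610967 to 138935034), had 777, 726 and 746 CPM in BARD1-expressing libraries and 434, 455 and 454 CPM in control libraries (0.74 ± 0.048 SE). FBN2, a fibrillin of elastic microfibrils, had 236, 265 and 248 CPM in BARD1-expressing libraries and 176, 178 and 161 CPM in control libraries (0.54), and was the highest value among the first 12 expressed members. SPARC, a collagen-binding matricellular protein inside the raised span, did not share the change. It had 377, 370 and 378 CPM in BARD1-expressing libraries and 377, 405 and 373 CPM in control libraries (-0.04 ± 0.049), with overlapping groups.

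Signalling and cytoskeleton genes had 17 of 19 tested called higher and 1 lower, with a median of 0.50. DIAPH1, a formin that nucleates actin filaments, had 361, 358 and 366 CPM in BARD1-expressing libraries and 220, 218 and 224 CPM in control libraries (0.71 ± 0.047 SE). ANXA6, a calcium-dependent membrane-binding protein, had 333, 357 and 350 CPM in BARD1-expressing libraries and 230, 230 and 224 CPM in control libraries (0.61). CSNK1A1 had 290, 291 and 297 CPM in BARD1-expressing libraries and 215, 215 and 220 CPM in control libraries (0.43). The spread within each group was small against the gap in all 3. NR3C1, the glucocorticoid receptor, had 106, 93.8 and 96.3 CPM in BARD1-expressing libraries and 59.4, 62.2 and 68.1 CPM in control libraries (0.64). Of 16 listed receptor and channel genes, 13 had too few counts to be tested.

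Metabolic genes and transporters were mixed. Of 12 tested metabolic genes 7 were called higher and 1 lower, and FABP6, among the 7, was tested only because of its level in BARD1-expressing cells. GPX3, a secreted glutathione peroxidase, had 97.6, 94.6 and 84.9 CPM in BARD1-expressing libraries and 58.2, 57.9 and 59.6 CPM in control libraries (0.66), and GNPDA1, a hexosamine deaminase, was higher by 0.29. Of 7 tested transporters 2 were called higher, the nucleotide-sugar transporter family member SLC35A4 (0.37) and the sulfate transporter SLC26A2 (0.39). SLC36A1, a lysosomal amino acid transporter (0.15), and the sodium-potassium-chloride cotransporter SLC12A2 (-0.11) were not called. Whether role groups differ from each other was not tested.

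Cytokines and other secreted factors of the stretch were mostly silent. Of 18 listed genes 13 had too few counts to be tested, among them IL3, CSF2, IL4, IL5, IL13 and IL9. The interleukin genes IL5, IL13 and IL9 had no count in any library, and IL4 had 0, 4 and 1 counts in BARD1-expressing libraries and 3, 2 and 0 in control libraries. A count of 0 allows up to 3 counts per library, which is 0.123 to 0.235 CPM, and such limits cover counting error only. HBEGF, described above, and C1QTNF2, a secreted protein of the C1q family (0.48 ± 0.143 SE), were called higher. FGF1, a fibroblast growth factor, had 11.2, 13.6 and 12.7 CPM in BARD1-expressing libraries and 12.1, 12.6 and 13.5 CPM in control libraries (-0.01). The groups overlapped in C1QTNF2 and in FGF1. C1QTNF2 was not called without BARD1-expressing library 2 or 3 or without control library 3, with values of 0.37 to 0.43.

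Several members of protein complexes were set against the subunits encoded elsewhere. For 18 complexes, 19 subunits were members, and all 19 were called higher, with a median log2 fold change of 0.57 and a range from 0.17 to 0.77. Of their 167 partner genes outside the stretch 166 were tested, with a median of -0.01, 21 called higher (12.7%, against 16.5% of all tested genes) and 17 lower (12.4% of all tested genes were). RARS, a subunit encoded outside the limits and called lower, is not among the 167. The partners ranged from -0.81 to 0.56. In 17 of the 19 the member lay above every partner, and in all 19 above the partners' median. The members were selected on values of this comparison and the partners lie outside the limits, so the members' higher position was set by the choice and is a description only. The exceptions were CDC23, exceeded by 1 of 13 partners in the anaphase-promoting complex, and HDAC3, exceeded by 1 of 5 partners in its corepressor complex.

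The values of single complexes are as follows, again as a description. RPS14 changed by 0.57, whereas 31 other proteins of the small ribosomal subunit had a median of 0.01 and a highest value of 0.26. SAR1B, the GTPase that starts COPII coat assembly, changed by 0.72 and SEC24A, its cargo-binding partner, by 0.77, whereas 8 other coat genes had a median of 0.11 and a highest value of 0.27. TAF7 of the general transcription factor TFIID changed by 0.61, with 13 partners between -0.28 and 0.24. The leucyl-tRNA synthetase gene LARS changed by 0.64, with 9 partners of the multi-synthetase complex between -0.20 and 0.29. RARS, a further subunit of that complex just outside the upper limit, was not among the 9 and lay lower, at -0.34. RAD50, a DNA repair protein expressed at 7.14 ± 0.609 CPM in BARD1-expressing cells and 4.77 ± 0.346 CPM in control cells (SD, n = 3 each), changed by 0.57, whereas its partners MRE11 and NBN lay between -0.09 and -0.04. The smallest value was that of GEMIN5, the snRNA-binding subunit of the SMN complex, at 0.17 ± 0.054 (SE), still above its 7 partners, which lay between -0.21 and -0.09. GEMIN5 was not called without BARD1-expressing library 3, without control library 1 or 2, or without the filter on low counts, with values of 0.16 to 0.17.

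**Figure D4:**
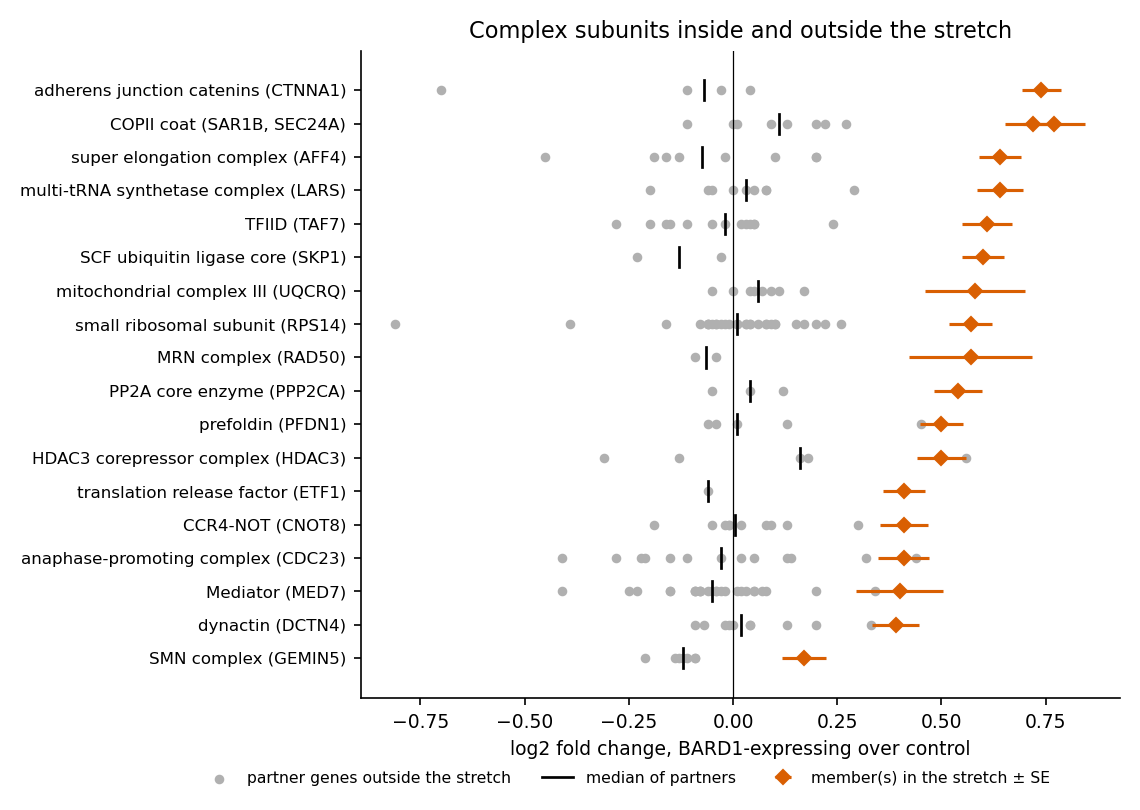
Log2 fold change, BARD1-expressing over control, of 19 complex subunits encoded in the stretch (orange diamonds, bars SE) and of their tested partners encoded elsewhere (grey points, black tick at the median), with 1 line per complex and the member genes in brackets. Members lie between 0.17 and 0.77, and partners lie around 0 with a median of -0.01. RARS of the multi-synthetase complex is not shown.

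Some neighbours lie head to head, on opposite strands with their starts facing apart. There were 8 such pairs of expressed members with deposited starts within 1000 bases, and the 2 genes of a pair differed by a median of 0.19 in log2 fold change, against 0.24 for neighbours in general. SAR1B and SEC24A were the most alike, at 0.72 and 0.77. BRD8, a subunit of a histone acetyltransferase complex, and KIF20A were the least alike, at 0.25 ± 0.061 and 0.76 ± 0.052 (SE). BRD8 had 89.8, 82.1 and 85.9 CPM in BARD1-expressing libraries and 74.5, 74.4 and 68.1 CPM in control libraries. Deposited limits of 6 of the 8 pairs overlap, and since the sources used here do not say whether counting used strand, reads of the overlap cannot be told apart. In the RefSeq annotation the starts of BRD8 and KIF20A lie 482 bases apart, but those of 3 pairs lie farther apart than 1000 bases: SLU7 and PTTG1 by 2774, HINT1 and LYRM7 by 5688, and SAR1B and SEC24A by 15957 bases.

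In 3 of these pairs the gene on the plus strand is a mitotic gene, and in each of them it changed more than its neighbour. PTTG1 changed by 0.68 and SLU7, a splicing factor, by 0.28. HMMR changed by 0.25 ± 0.061 and NUDCD2, a cochaperone gene, by 0.11 ± 0.059 (SE). NUDCD2 is itself among the 12 listed cell cycle genes, so this pair does not set a cell cycle gene against another kind. The 250 bases before the start of each of the 3 mitotic genes are shown because such promoters are known for CCAAT boxes, bound by NF-Y, and for the cell cycle homology element TTTGAA. They come from RefSeq (GRCh38.p14, plus strand, 5' to 3'), and capitals mark CCAAT or its complement ATTGG and TTTGAA, with either strand searched. The windows lie at chr5:138178862-138179111 for KIF20A, chr5:160421605-160421854 for PTTG1 and chr5:163460382-163460631 for HMMR. They overlap the deposited gene limits in part, since those begin earlier.
KIF20A: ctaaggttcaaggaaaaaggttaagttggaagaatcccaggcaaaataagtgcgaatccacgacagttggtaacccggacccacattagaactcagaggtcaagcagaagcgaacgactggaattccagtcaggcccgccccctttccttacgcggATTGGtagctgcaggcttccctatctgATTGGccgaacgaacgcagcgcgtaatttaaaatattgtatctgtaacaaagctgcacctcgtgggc
PTTG1: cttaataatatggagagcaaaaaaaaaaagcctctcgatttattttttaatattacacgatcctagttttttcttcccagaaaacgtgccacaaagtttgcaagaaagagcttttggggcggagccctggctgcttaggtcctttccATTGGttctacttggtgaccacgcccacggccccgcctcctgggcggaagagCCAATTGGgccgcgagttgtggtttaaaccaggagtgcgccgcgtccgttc
HMMR: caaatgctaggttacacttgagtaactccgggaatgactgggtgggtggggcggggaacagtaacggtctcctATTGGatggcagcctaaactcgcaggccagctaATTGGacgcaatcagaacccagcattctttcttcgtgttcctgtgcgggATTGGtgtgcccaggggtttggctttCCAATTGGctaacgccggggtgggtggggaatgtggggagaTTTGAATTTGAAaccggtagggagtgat
The windows of KIF20A, PTTG1 and HMMR hold 2, 3 and 5 CCAAT matches, and that of HMMR holds 2 TTTGAA matches, placed side by side. Some CCAAT matches share bases, because CCAATTGG reads as a match on both strands. HMMR has the most matches and the smallest change of the 3, and it also lies outside the span from P4HA2 to PTTG1. Whether the number of matches and the size of the change are related was not tested.

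Over all expressed members the same motifs were not far from their share elsewhere. A promoter was matched for 143 of the 151 members. CCAAT on either strand was present in 38.5% of them, against 35.3% of 8408 promoters of expressed genes outside the limits and 33.1% of all 27305 promoters in the table. TTTGAA or TTCGAA was present in 12.6% of member promoters, 9.12% of other expressed promoters and 14.6% of all promoters. The GGGCGG box was present in 65.7% of member promoters, against 70.3% of other expressed promoters and 42.3% of all promoters. The median log2 fold change was 0.45 in 55 members with CCAAT and 0.49 in members without it. For the GGGCGG box the median was 0.51 in 94 members with it and 0.39 in members without it. It was 0.36 in 18 members with TTTGAA or TTCGAA and 0.50 in members without either. These are matches of letters and do not show binding.

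**Figure D5:**
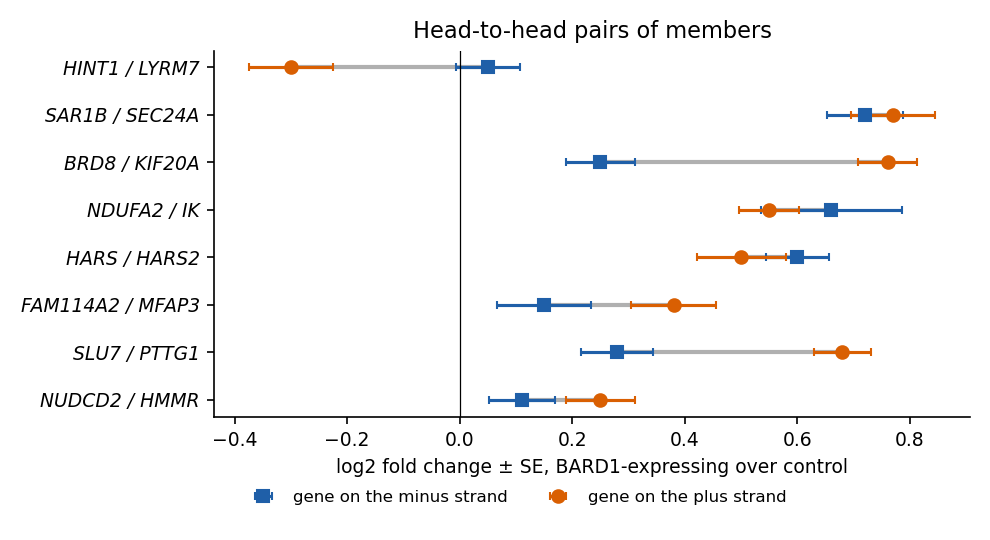
Log2 fold change with SE, BARD1-expressing over control, of the 2 genes of each of 8 head-to-head pairs; squares are the gene on the minus strand and circles the gene on the plus strand, joined by a grey line, in chromosome order from the top. BRD8 and KIF20A lie farthest apart (0.25 and 0.76) and SAR1B and SEC24A closest (0.72 and 0.77).

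A property that ran with the size of the change was sought in the members. The Spearman correlation of the log2 fold change was 0.27 with the G and C content of the promoter (143 members), -0.13 with mean CPM, -0.09 with gene length and -0.14 with the control level per length (151 members each). These are descriptions across genes that share the same 6 libraries, and genes are not independent replicates. Ranked by control level, the 51 lowest members (3.51 to 31 CPM) had a median of 0.58, the 49 in the middle 0.48 and the 51 highest (86.6 to 1680 CPM) 0.39. The SD between members was 0.388 in the lowest group and 0.249 in the highest. The control level is also the denominator of the log2 fold change. Members with a control level under 5 CPM are in the set only where raised. The order of these medians is therefore set in part by the choice and is a description only.

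Only 4 members were called lower, 3 of them outside the span from P4HA2 to PTTG1. LYRM7, an assembly factor of mitochondrial complex III that lies before P4HA2, had 38.8, 35.8 and 35.8 CPM in BARD1-expressing libraries and 41.9, 44.9 and 48.9 CPM in control libraries (-0.30 ± 0.075 SE). WWC1, which encodes the Hippo pathway protein KIBRA and is the last expressed member, had 177, 177 and 180 CPM in BARD1-expressing libraries and 212, 217 and 205 CPM in control libraries (-0.25). MAT2B, the regulatory subunit of methionine adenosyltransferase, had 116, 102 and 104 CPM in BARD1-expressing libraries and 116, 127 and 123 CPM in control libraries (-0.18), so its groups overlap although it was called lower. Inside the raised span the protease inhibitor SPINK5 alone was called lower, at 11.1, 8.63 and 8.43 CPM in BARD1-expressing libraries and 14.4, 11.8 and 11.6 CPM in control libraries (-0.44 ± 0.127). MAT2B was not called without BARD1-expressing library 2 or 3 or without control library 2 or 3, with values of -0.18 to -0.15. SPINK5 was not called without BARD1-expressing library 2 or 3 or without control library 1, with values of -0.39 to -0.34.

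Between P4HA2 and PTTG1, 8 expressed members had a log2 fold change of 0.1 or less, among them TMCO6, FGF1, SPINK5, ZNF300, SPARC, ATOX1 and CCNJL. SPARC and ATOX1, a copper chaperone gene, are neighbours, and the others named here are each flanked by expressed members above 0.1. The remaining members among the 8 lowest were SLC12A2 (-0.11), MARCHF3 (-0.10), the hydrolase-family gene ISOC1 (-0.08) and the cyclin-like CCNJL (-0.05), each with overlapping groups.

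Genes with low counts gave the largest ratios, with wide errors. Among 32 tested members under 5 CPM, 14 were called higher and none lower. TENM2, a teneurin adhesion protein between MAT2B and WWC1, had 40, 71 and 37 counts in BARD1-expressing libraries and 9, 9 and 5 in control libraries (log2 fold change 3.07 ± 0.324 SE). PPP2R2B, a regulatory subunit of PP2A, had 28, 67 and 48 counts in BARD1-expressing libraries and 17, 13 and 13 in control libraries (2.12 ± 0.287). SOWAHA had 11, 18 and 21 counts in BARD1-expressing libraries against 2, 1 and 1 in control libraries. The bile acid-binding protein gene FABP6 had 13, 12 and 9 counts in BARD1-expressing libraries against 0, 0 and 3 in control libraries, and KLHL3, an adaptor of a cullin ligase, had 8, 22 and 13 against 5, 5 and 2. TENM2, SOWAHA, FABP6 and KLHL3 had control means below the highest mean of an untested member, 0.388 CPM, so they were tested only because of their level in BARD1-expressing cells. Members with control means just above that value may share this limit. Of the 99 members that were not tested, 50 had no count in any library.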

How the data were processed

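The authors deposited raw read counts per gene for 6 libraries, with gene length, position and biotype. The build was GRCh38, and the tools named are featureCounts 1.5.0-p3, HISAT2 2.0.5 and DESeq2 1.20.0, per the submitters' processing notes. The notes give no options, and the labels' protocols name both directional and non-directional libraries, so reads of overlapping or near-identical genes cannot be assigned with certainty. Symbols that a spreadsheet had turned into dates were named from their gene identifiers.

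These counts entered edgeR 4.0.16 under R 4.3.3. After filterByExpr and scaling by TMM, the robust quasi-likelihood F test was run on a model of group alone (4 residual degrees of freedom) over 15400 genes, with Benjamini-Hochberg adjustment and a threshold of 0.05. A p-value here reflects the spread among libraries, which may be technical. Group means are given with SD (n = 3). Levels per length are TMM-scaled CPM per kilobase of the deposited gene length. DESeq2 1.42.0 was an alternative, besides other scalings, no filter, a replicate block and leaving out each library. The pipeline was tested on simulated data. No 2 libraries agreed within sampling noise.

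The members, gene lists, complexes and motifs were chosen with earlier results of these data known. Genes are named by rule: the 3 nearest each limit on either side, the 8 highest and 8 lowest changes and 6 highest levels per length among members with at least 5 CPM, members called lower, up to 4 most abundant genes per role list, complex subunits, and the most and least alike head-to-head pairs. Other named genes were chosen after their values were seen. Some results are not reported here.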

Additional observations from a re-analysis of the deposited data

How the results depend on the processing

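The median log2 fold change of the expressed members was 0.47 or 0.48 with DESeq2 size factors, upper quartile scaling, factors from genes outside chromosomes 5 and 18, no filter or DESeq2, and 0.48 or 0.49 with a minimum mean of 1 CPM, of 20 CPM or none, and with all biotypes. Over the members tested, 132 to 140 were called higher in the fits with other scalings, no filter or DESeq2, with 4 called lower in each. These counts do not cover the other choices of a minimum mean or of biotypes. Leaving out 1 library in turn gave medians of 0.46 to 0.48, 130 to 140 called higher, 2 to 5 called lower, and 1.33 to 1.43 for BARD1. The 2 called lower were seen without BARD1-expressing library 2 or 3, and the cause was not tested. Other scalings shifted the median of all tested genes by -0.02 to -0.01. With the replicate number as a block the median was 0.48, with 137 called higher, 4 called lower and 1.37 for BARD1. The numbers did not pair the samples: deviations of same-numbered libraries correlated at -0.338, -0.025 and -0.055. Those of differently numbered libraries correlated from -0.306 (BARD1-expressing 2 with control 3) to 0.331 (BARD1-expressing 2 with control 1). What these deviations share was not tested. Of 80 named genes over 12 refits, C1QTNF2, CSNK1G3, GEMIN5, LMNB1, MAT2B and SPINK5 lost their call in 1 to 4 refits, FBLL1 gained one, and none changed sign while called. Depth limits what can be said of the 99 untested members.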

Other observations

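Genes inside the same limits that are not members gave these values. Of 53 protein-coding clustered protocadherins 19 were tested, 15 were called higher in BARD1-expressing cells and none lower, with a median log2 fold change of 0.99. Over all tested genes 16.5% were called higher and 12.4% lower. Among the 15, PCDHB2, PCDHA11 and PCDHGC5 had control means of 0, 0.275 and 0.237 CPM. They were tested only because of their level in BARD1-expressing cells. PCDHA7 and PCDHB13, also among the 15, had control means of 0.416 and 0.413 CPM, close to the 0.388 CPM of an untested member. They may have passed the filter through BARD1-expressing cells alone as well. Clustered protocadherins share sequence, so their counts are uncertain. Of 462 genes of other biotypes 14 were tested, with 3 called higher, 2 lower and a median of 0.25. AC005618.1, among the 3, had a control mean of 0.0591 CPM and was likewise tested only because of its level in BARD1-expressing cells. SNHG4, a host gene of small nucleolar RNA whose limits lie within those of a MATR3 entry, had 37.4, 35.3 and 32 CPM in BARD1-expressing libraries and 41.3, 33.6 and 34.9 CPM in control libraries, with overlapping groups. PDGFRB, a receptor of platelet-derived growth factor, had a log2 fold change of 1.51, and the immediate early gene EGR1 one of 2.01. CD74, the invariant chain of MHC class II, had 49, 86 and 54 counts in BARD1-expressing libraries and 0, 0 and 1 in control libraries.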
